A study of Mus musculus with 4 samples.

Results

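Lymphocytes with cytotoxic transcripts were a small part of the esophageal immune cells: 172 of 6054 cells met the rule, of which 111 came from wild-type mice and 61 from the knock-out. The cells were viable CD45+ cells sorted from the esophagus of 5 IL20RB knock-out mice and 5 wild-type mice in a model of eosinophilic esophagitis. The knock-out removes a receptor chain shared by receptors for cytokines of the IL-20 family. Mice of both genotypes were treated alike. MC903 (calcipotriol, a vitamin D analogue, 1 nmol) and ovalbumin (5 mg/ml) were put on the ear every day for 14 days. Ovalbumin was then given in the drinking water (1.5 g/l) from day 14 for 4 days and by gavage (50 mg) on days 15 and 17, and the esophagus was taken on day 18. No animal without this treatment was analysed here, and the labels give no strain, sex, age or kind of knock-out allele. Cells of each animal carried their own hashtag antibody, all animals were pooled, and the pool was run in 2 wells of a droplet device, so each well holds cells of both genotypes and the animal is the replicate throughout.

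A cell was taken when it had at least 1 UMI (a counted molecule) of the T cell receptor complex genes Cd3e, Cd3d and Cd3g or the NK cell receptor genes Ncr1 and Klrb1c, and at least 2 UMIs in the sum of Nkg7, Gzma, Gzmb and Xcl1. Cells with any Cd79a, Xcr1 or Clec9a UMI or with 5 or more Lyz2 UMIs were left out, which set aside 2 cells that met the other conditions. The rule reads measured values, so the levels of its 13 genes and every contrast between gated and other cells are given as description without a test. The 221 cells that met the lineage conditions but had 0 or 1 UMI of the 4 cytotoxic genes served for comparison and are called other T and NK lymphocytes, although 96 of them had 2 or more UMIs of genes typical of group 2 innate lymphoid cells (Il1rl1, Areg, Il17rb, Hs3st1, Calca, Il5), against 20 of the gated cells. Of the 221, 218 had Cd3 UMIs without NK receptor UMIs, 1 had NK receptor UMIs without Cd3 and 2 had both. At the edge of the rule, 35 gated cells had exactly 2 cytotoxic UMIs and 38 cells outside it had exactly 1. The remaining 183 other T and NK lymphocytes had 0. Of 1311 macrophage-like cells with 10 or more C1q UMIs, 1.37% had a UMI of the 5 lineage genes and 0.153% had 2 or more cytotoxic UMIs.

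Cytotoxic lymphocytes kill target cells by releasing granules that hold perforin, which opens a passage into the target, and granzymes, proteases that start cell death. T cells recognise peptides through a rearranged receptor signalling with the CD3 chains, while NK cells lack that receptor and read the balance of activating and inhibitory surface receptors, many of them of the killer cell lectin-like (Klr) families. Both kinds also secrete chemokines and interferon-gamma, and in barrier tissues such as the esophagus they live beside helper T cells and innate lymphoid cells that make type 2 cytokines.

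The gated cells had a median of 3404.5 UMIs and 1380 genes, close to the other T and NK lymphocytes (3027 UMIs) and below all cells together (5269 UMIs). Each animal gave 3 to 35 gated cells and 7028 to 159731 UMIs from them. The 2 wells gave 87 and 85 gated cells, and none of the gated cells carried either of the 2 barcodes found in both wells. Il20rb had 0 UMIs in the gated cells of both genotypes, a count of 0 that allows up to 2.70% of the 111 wild-type cells to hold a UMI, so the transcript does not check the genotype here.

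The 6 markers behind the name were present, but not in the same cells. Nkg7, a granule membrane protein, had a UMI in 156 cells (90.7%), Xcl1, a chemokine that draws cross-presenting dendritic cells, in 64 (37.2%), Gzmb in 62 (36.0%), Gzma in 40 (23.3%), Klrb1c in 44 (25.6%) and Ncr1 in 35 (20.3%). The 2 granzymes went together on one side only: 36 of the 40 cells with Gzma also had Gzmb, while 26 of the 62 with Gzmb had no Gzma. For 64 cells Nkg7 was the only cytotoxic gene with a UMI, 106 had neither granzyme, and 18 had all 4 genes. The sum of the 4 genes was 10 or more in 83 cells and 50 or more in 30, so the gate joins cells with a few cytotoxic UMIs to cells with very many.

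The lineage genes split the gate into 118 cells with Cd3 UMIs only (T-type), 36 with NK receptor UMIs only (NK-type) and 18 with both. Their median depths were alike, at 3390, 3401.5 and 3658 UMIs, so shares of cells with a UMI can be set side by side. The median sum of the 4 cytotoxic genes was 5 UMIs in T-type cells, 21.5 in cells with both and 54.5 in NK-type cells. Of the 30 cells with 50 or more cytotoxic UMIs, 21 were NK-type, 6 had both and 3 were T-type. By contrast, all 35 cells with exactly 2 cytotoxic UMIs were T-type. A T cell whose Cd3 molecules were missed would be counted as NK-type; 2 of the 36 had a UMI of Trac, the constant segment of the T cell receptor alpha chain. Trbc1 or Trbc2, which NK cells can transcribe without rearrangement, had a UMI in 26 of the 36.

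**Figure D1:**
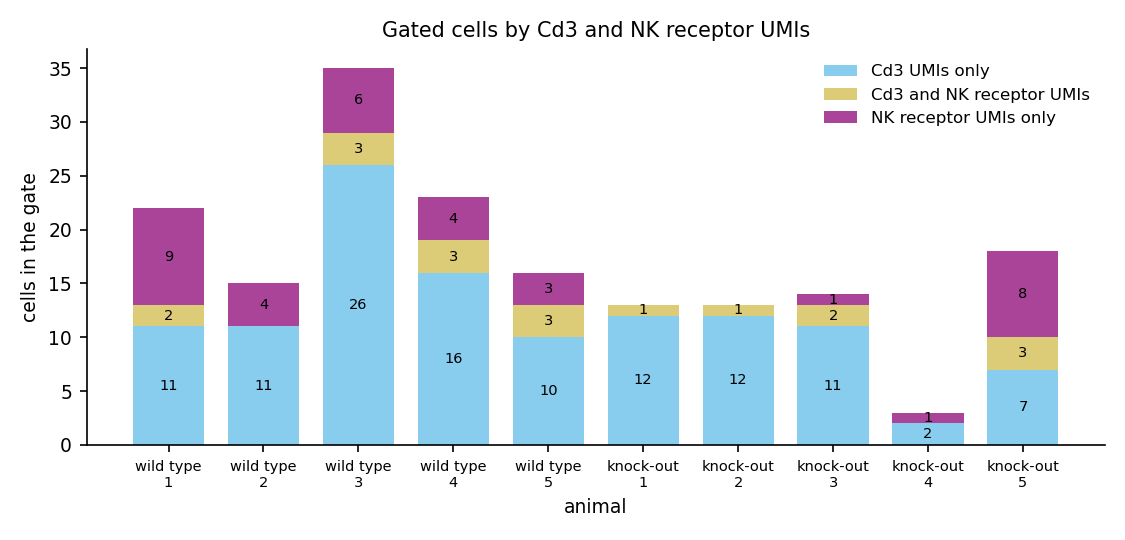
Number of gated cells (vertical axis) in each of the 10 animals (horizontal axis), stacked by whether Cd3, NK receptor (Ncr1, Klrb1c) or both kinds of UMI were found. T-type cells were the largest group in 9 animals; knock-out animal 5 held 8 of the 10 knock-out NK-type cells.

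The genes of granule killing were found most often in NK-type cells. Gzma had a UMI in 27 of the 36 against 6 of 118 T-type cells, and Prf1, the perforin gene, in 72.2% against 6.78%. Ctsw, a cathepsin of cytotoxic cells, reached 91.7% against 46.6%. The inhibitors that shield a killer from its own granzymes followed: Serpinb9 had a UMI in 69.4% of NK-type and 16.9% of T-type cells, and Serpinb6b in 55.6% and 12.7%. Of the 42 gated cells with Prf1, 29 also had Gzma. The NK-type set was not uniform: 8 of its 36 cells had neither granzyme. All NK-type cells without Gzma came from wild-type animals and had Xcl1 UMIs but no Eomes UMI. Cma1, a chymase gene best known from mast cells, had UMIs in 5 NK-type cells and in no other gated cell. Of the other mast cell and basophil genes listed, Fcer1a also had at least 1 UMI in gated cells. Cpa3, Mcpt4, Mcpt8, Ms4a2 and Gata2 were at 0 in all 172.

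The receptor and adaptor genes drew the same line. Klrd1 (CD94), which pairs with NKG2 chains, had a UMI in 91.7% of NK-type and 39.8% of T-type cells, Klrk1 (NKG2D) in 91.7% and 37.3%, and Klre1 in 72.2% and 13.6%. The Ly49 receptor gene Klra8 had UMIs in 33.3% of NK-type cells and 0 of 118 T-type cells. Tyrobp and Fcer1g, adaptors through which activating NK receptors signal, had a UMI in all 36 NK-type cells, against 16.9% and 33.1% of T-type cells. Both adaptors are also myeloid genes, found in 99.4% of the 491 neutrophil-gated cells (20 or more S100a8 and S100a9 UMIs, no Cd3), whereas Gzma, Prf1, Klre1 and Nkg7 had 0 UMIs there and Gzmb had a UMI in 0.204%. Neutrophil-gated cells were shallower, at a median of 1907 UMIs. After thinning every cell to 1000 UMIs the contrasts stood: Prf1 was found in 50.0% of NK-type and 3.39% of T-type cells, and Klrd1 in 63.9% and 21.2%.

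T-type cells instead carried costimulation, helper and tissue-residence genes. Cd28 had a UMI in 47.5% of T-type and 16.7% of NK-type cells, Icos in 35.6% and 2.78%, and Ctla4, an inhibitory receptor, in 21.2% and 0%. Bcl11b, a transcription factor of T cell commitment, had a UMI in 55.1% and 2.78%. Rora and Gata3, transcription factors shared by type 2 lymphocytes, were found in 34.7% and 53.4% of T-type cells, against 1 and 9 of the 36 NK-type cells. Cxcr6, a chemokine receptor of tissue-resident lymphocytes, was in 39.8% of T-type and 8.33% of NK-type cells. Of the 22 cells with a Mki67 or Top2a UMI, which mark division, 20 were T-type, and they were deep, with a median of 7862.5 UMIs.

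**Figure D2:**
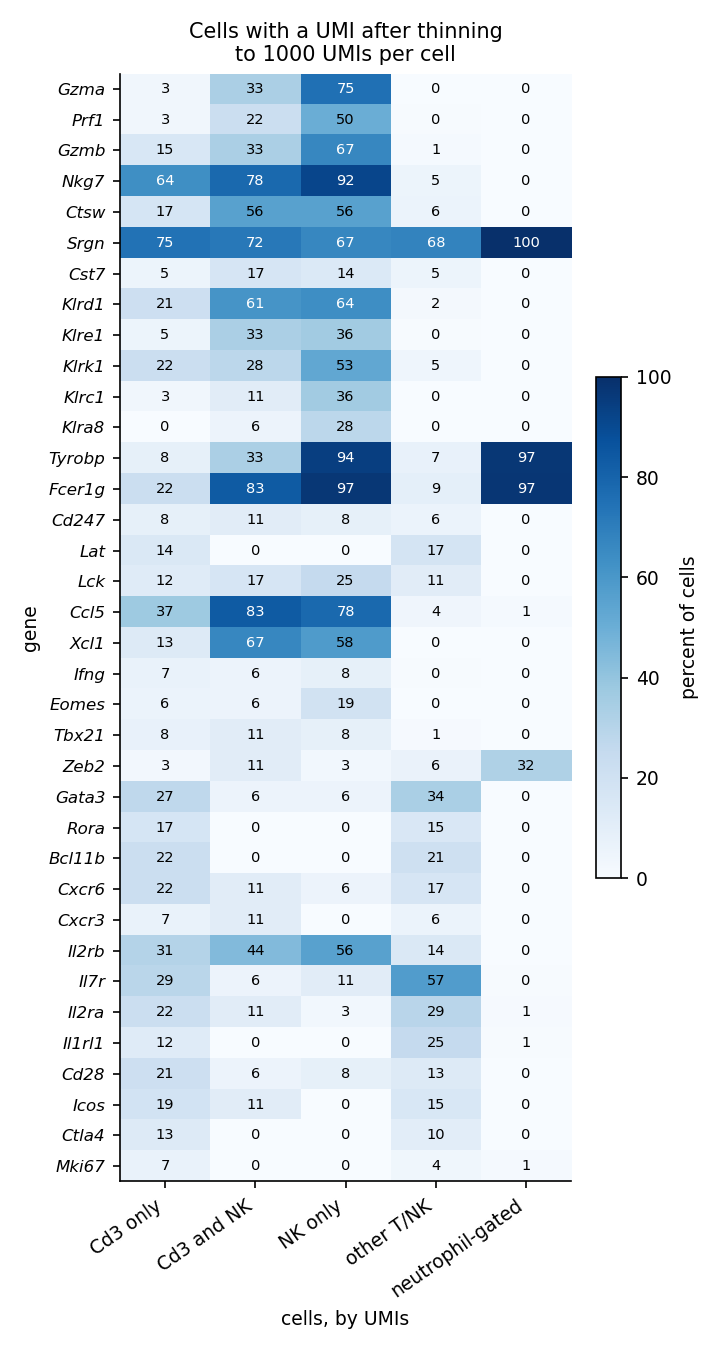
Percent of cells with a UMI of each gene (rows) after thinning to 1000 UMIs per cell, for gated cells with Cd3 UMIs only, Cd3 and NK receptor UMIs, or NK receptor UMIs only, for other T and NK lymphocytes and for neutrophil-gated cells (columns). Granule and Klr genes are densest in the column of cells with NK receptor UMIs only, and Gata3, Rora, Bcl11b, Icos and Ctla4 in the columns of T-type and other cells.

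Among the 136 gated cells with Cd3, a minority had a coreceptor UMI. Cd8a or Cd8b1 without Cd4 was seen in 28 cells, Cd4 without Cd8 in 23, both in 2 and neither in 83. Of these 83, 30 had a UMI of a gamma-delta receptor gene (Trdc, Tcrg-C1, Tcrg-C2 or Tcrg-C4) and 53 had none of these genes, at a median depth of 3234 UMIs, at which a missing coreceptor UMI does not show that the gene was off. The 30 are called gamma-delta cells below by these UMIs alone. Trac, Trbc1 or Trbc2 had a UMI in 132 of the 136 cells with Cd3, so most of the 30 also carried one. Gzmk, a granzyme of memory CD8 cells, was found in 7 of the 28 Cd8 cells and in 1 of the other gated cells. The Cd8 cells had Ccl5, an inflammatory chemokine, in 78.6%, Klrd1 in 71.4%, Ly6c2 in 67.9% and Tcf7, a factor of memory and naive T cells, in 67.9%, but Gzmb in 21.4% and Gzma in 3.57%.

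The Cd4 cells held regulatory and helper genes beside granzyme B. Gzmb had a UMI in 10 of the 23 Cd4 cells (43.5%), Nkg7 in 69.6% and Prf1 in none, while Ctla4 was found in 43.5%, Icos in 60.9%, Il2ra in 56.5% and Gata3 in 73.9%. Foxp3, the factor of regulatory T cells, had UMIs in 15 gated cells, all T-type, of which 7 were among the Cd4 cells and none among the Cd8 or gamma-delta cells. The 30 gamma-delta cells all had Nkg7; 53.3% of them had Xcl1, 83.3% Fcer1g, 73.3% Klrd1 and 46.7% Cd160, with Gzma and Gzmb at 13.3% each. Each set rests on 23 to 53 cells, so a share of 43.5% of 23 cells carries a wide counting error.

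The gated cells held 36 NK-type cells and the other T and NK lymphocytes 1, so their contrast also sets NK-type against T-type cells. Against the other T and NK lymphocytes, the 15 genes with the largest ratios outside the rule were Prf1, Ctsw, Klre1, Klrc2, Klra8, Cd160, Klrc1, Klra7, Klra9, Ccl5, Il4, Itga1, Eomes, Klra4 and Cd7. Ccl5 was the most abundant of them, at 3972 ± 1845 CPM (UMIs of the gene scaled to a common total of UMIs per animal, the usual CPM; mean ± SD over the 9 animals with 5 or more gated cells) against 111 ± 114 in the other lymphocytes. Ctsw stood at 394 ± 166 against 42.5 ± 33.5 CPM, and Eomes, a T-box factor of NK and CD8 memory cells, at 110 ± 67.6 against 0.669 ± 2.01. Itga1 (CD49a), an integrin of resident NK and T cells, stood at 66.0 ± 60.4 CPM and was listed at 0 in the other lymphocytes. Runx3, which keeps cytotoxic programs on, was less selective, at 406 ± 171 against 143 ± 86.7. Il4 belongs to this group through 1 cell: a single cell of wild-type animal 2 held 218 of the 224 Il4 UMIs.

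The 10 genes lowest against the other lymphocytes were Il17f, S100a8, S100a9, Il1b, Lif, Mgl2, Cd209a, Cxcl2, Calca and Ms4a6c. Calca, a neuropeptide gene of group 2 innate lymphoid cells, had 1.94 ± 4.04 CPM in gated cells and 91.1 ± 92.5 in the others. Il1rl1, the IL-33 receptor, had 86.0 ± 85.3 against 382 ± 112 CPM, and Il7r, the IL-7 receptor, 335 ± 175 against 906 ± 393. Genes that both populations use stood close: Trbc2 had 679 ± 211 and 554 ± 156 CPM, Il2rg 265 ± 84.4 and 285 ± 127, and Id2 731 ± 286 and 762 ± 212. Most of the lowest genes are known from myeloid or dendritic cells: S100a8, S100a9, Il1b, Mgl2, Cd209a, Cxcl2 and Ms4a6c. S100a8 and S100a9 were at 165 ± 318 and 216 ± 415 CPM in the other lymphocytes and at 2.28 ± 4.95 and 8.12 ± 8.56 in gated cells. In the other lymphocytes the summed dendritic cell list ran from 0 CPM (knock-out animal 3) to 13112 CPM (knock-out animal 2). The part of such RNA in these ratios was not tested.

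Of the cytokines Ifng, Il4 and Il13, Ifng was found in the most gated cells. Ifng had UMIs in 37 gated cells (21.5%) and in 5 of the 221 other lymphocytes. Ccl4, an inflammatory chemokine, stood at 1121 ± 1459 CPM, with a UMI in 50.0% of NK-type and 17.8% of T-type cells but also in 51.7% of neutrophil-gated cells. The type 2 cytokines Il13 and Il4 were found in few cells: Il13 had UMIs in 6 and Il4 in 3, all of them T-type and from wild-type animals. Their UMIs were many but lay mostly in 1 cell, with 114 of the 126 Il13 UMIs and 218 of the 224 Il4 UMIs. The Il13 cells came from 3 animals and the Il4 cells from 2, and a difference between genotypes was not tested. For the 61 knock-out cells a count of 0 allows a share of up to 4.92%, by counting error over pooled cells alone. The wild-type shares were 2.70% (Il4) and 5.41% (Il13), and pooled cells cannot show a difference between animals of the 2 genotypes. Il17a had 1 UMI.

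Many defining markers of other cell types were at 0. C1qc, Csf3r, Cxcr2, Retnlg, Flt3, Fscn1, Ms4a1, Mzb1, Krt5, Krt14 and Epx had no UMI in gated cells. Other members of their lists did. The B cell list (6 genes, 3 with a UMI, Cd79a at 0 by the rule) ran from 24.2 to 166 CPM in wild-type animals. In knock-out animals it ran from 53.8 to 234 CPM. The neutrophil list (6 genes, 3 with a UMI) reached 49.9 and 53.8 CPM in the 2 genotypes, and the eosinophil list (7 genes, 2 with a UMI) 22.4 and 19.5 CPM. The plasma cell and epithelium lists had 1 gene with a UMI each. The summed macrophage list (6 genes, 5 with a UMI) ran from 11.2 to 33.3 CPM in wild-type and from 51.2 to 71.7 CPM in knock-out animals, against 364 CPM in neutrophil-gated cells. The dendritic cell list (8 genes) had Flt3 and Fscn1 at 0, and Xcr1 and Clec9a at 0 by the rule. It ran from 96.7 to 275 CPM in wild-type animals and reached 5580 CPM in knock-out animal 3. In that animal a single T-type cell held 77.8% of all Cd74 UMIs of the gated cells. The monocyte list (6 genes, all with a UMI) ran from 387 to 932 CPM in wild-type and from 525 to 1454 CPM in knock-out animals, and included Ly6c2, which 67.9% of the Cd8 cells carried. Lyz2, allowed up to 4 UMIs, was present in 37 gated cells, with at most 2 UMIs in a cell. The part of these other cells' RNA in the gated profiles was not tested.

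The share of gated cells in all CD45+ cells did not differ detectably between genotypes. In wild-type animals 1 to 5 it was 2.45%, 2.35%, 4.33%, 4.60% and 2.77%. In knock-out animals 1 to 5 it was 1.48%, 3.33%, 5.17%, 0.721% and 2.65%. The knock-out values spread on both sides of the wild-type ones, with the highest and the 2 lowest values of all 10 among them. The means were 3.30 ± 1.08% and 2.67 ± 1.72% (SD, n = 5 each; two-sided exact permutation p = 0.476, Benjamini-Hochberg adjusted 0.714 over 9 comparisons of shares and depth, of which only this share, the share among T and NK lymphocytes and the NK-type share were planned). Within well 1 they were 3.73% and 2.76%, and within well 2 2.88% and 2.60% (exact permutation p = 0.460 and 0.754).

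Of the 221 other T and NK lymphocytes, 218 had Cd3 UMIs only, so their share says little about NK cells. These lymphocytes were less frequent in knock-out animals, in a comparison added after the data had been seen. They made up 5.30 ± 1.24% of cells in wild-type and 1.79 ± 1.06% in knock-out mice, with no overlap between animals (exact permutation p = 0.00794, the smallest that 5 against 5 animals allow; adjusted p = 0.0357). The adjustment does not cover the choice of this comparison after the data were seen. The values within well 1 were 5.22% and 1.58%, and within well 2 5.35% and 1.96% (exact permutation p = 0.00794 and 0.0397). Without the cells that had 2 or more innate lymphoid UMIs, a choice made after seeing the data, the shares were 3.11% and 0.785% (exact permutation p = 0.0159).

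Within the T and NK lymphocytes, the gated cells formed a larger share in 4 of the 5 knock-out animals. That share was 38.6%, 31.3%, 40.7%, 40.4% and 39.0% in wild-type animals 1 to 5. In knock-out animals 1 to 5 it was 56.5%, 48.1%, 82.4%, 27.3% and 69.2%. Knock-out animal 4, with 11 such lymphocytes in all, lay below every wild-type animal, and the other 4 lay above every one. The means of 38.0 ± 3.87% and 56.7 ± 20.9% gave an exact permutation p of 0.0952 (adjusted p = 0.286), so the difference did not pass. Without knock-out animal 4 the knock-out mean was 64.1 ± 15.0% and the exact permutation p 0.00794. Within wells the means were 40.0% and 58.9%, and 36.5% and 55.5% (exact permutation p = 0.175 and 0.135).

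**Figure D3:**
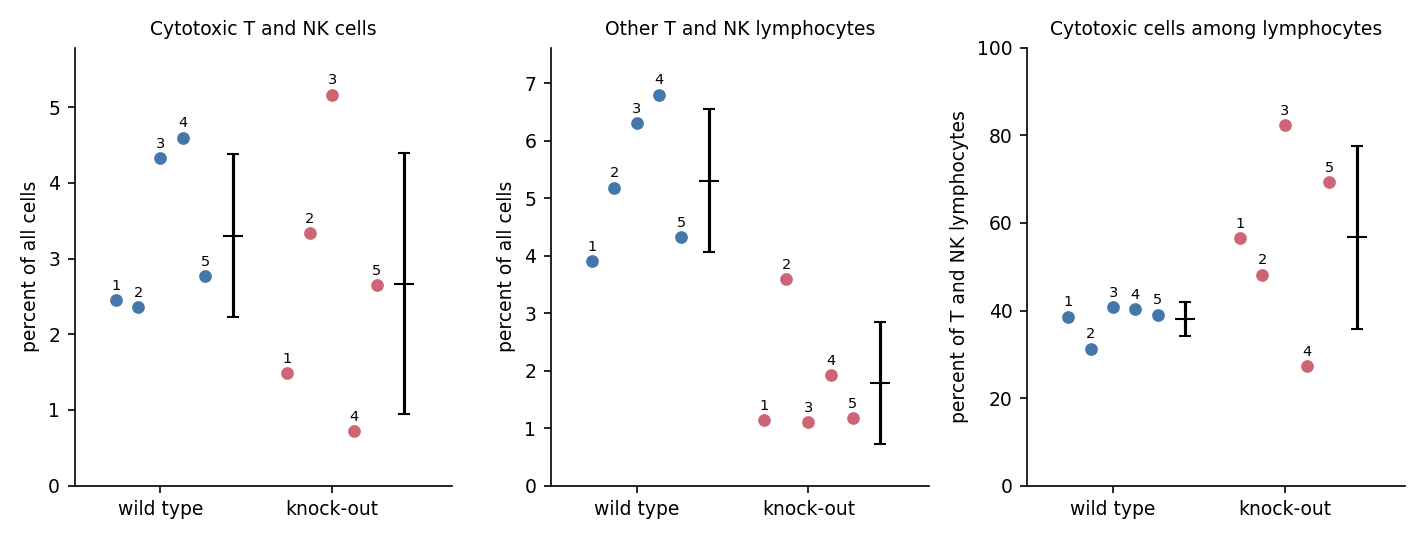
Percent of all cells that were gated cells (left) or other T and NK lymphocytes (middle), and gated cells as percent of both together (right), for 5 wild-type and 5 knock-out animals numbered as in the text. Black marks are means and bars SDs over animals; the genotypes separate without overlap only in the middle panel.

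The makeup of the gate varied more between knock-out animals than between genotypes. NK-type cells were 40.9%, 26.7%, 17.1%, 17.4% and 18.8% of gated cells in wild-type animals 1 to 5. In the knock-out animals with 5 or more gated cells they were 0% in animals 1 and 2, 7.14% in animal 3 and 44.4% in animal 5. Of these 4 animals, 3 lay below all wild-type animals and the remaining one above all of them. The means were 24.2 ± 10.1% (n = 5) and 12.9 ± 21.3% (n = 4; exact permutation p = 0.365, adjusted p = 0.714). Without knock-out animal 5 the knock-out mean was 2.38% (exact permutation p = 0.0179). Within well 1 the means were 25.7% and 18.6%, and within well 2 23.4% and 6.25% (exact permutation p = 0.635 and 0.0635).

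Depth, division and coreceptors did not separate the genotypes. The animals' median depth per gated cell averaged 3486 ± 550 UMIs (wild type) and 3689 ± 611 UMIs (knock-out; exact permutation p = 0.563, adjusted p = 0.724). Cells with a Mki67 or Top2a UMI were 14.4 ± 10.7% and 13.8 ± 11.8% of gated cells, cells with a Cd8a or Cd8b1 UMI 16.9 ± 8.72% and 18.4 ± 10.9%, and cells with a Cd4 UMI 18.3 ± 14.7% and 11.1 ± 9.31% (exact permutation p = 0.937, 0.841 and 0.452; n = 5 and 4).

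Trdc, the constant segment of the delta chain, was the exception, and it was looked at after its values had been seen. Gated cells with a Trdc UMI were 4.55%, 0%, 8.57%, 4.35% and 12.5% in wild-type animals 1 to 5 and 23.1%, 23.1%, 14.3% and 38.9% in knock-out animals 1, 2, 3 and 5, with no overlap. Knock-out animal 4 had none among its 3 gated cells. The means were 5.99 ± 4.74% and 24.8 ± 10.2% (exact permutation p = 0.00794, the smallest possible; adjusted p = 0.0357). That adjustment covers 9 comparisons and not the choice of Trdc among all genes after its values were seen. Both p-values thus understate how often such a difference arises. The wider set of gated cells with any gamma-delta gene overlapped between genotypes: it was 13.6%, 6.67%, 28.6%, 17.4% and 43.8% in wild-type animals 1 to 5 and 30.8%, 23.1%, 35.7% and 38.9% in knock-out animals 1, 2, 3 and 5, a difference in means of 10.1 percentage points (exact permutation p = 0.246). The Trdc difference passed in neither well alone (exact permutation p = 0.0556 and 0.206), nor after thinning to 1000 UMIs, which left 3 knock-out animals (4.44% and 11.1%, exact permutation p = 0.393). Outside the gate the order was turned: other T and NK lymphocytes with a Trdc UMI were 20 of 178 in wild-type and 0 of 43 in knock-out animals. Each knock-out animal held only 3 to 14 such lymphocytes. Over both populations, 7 of 27 Trdc cells in wild-type and 15 of 15 in knock-out animals were gated cells. These are counts of cells pooled over animals and were not tested. Of the 22 gated cells with Trdc, 11 were T-type, 5 had both kinds of receptor UMI and 6 were NK-type.

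Gene levels by genotype were compared with edgeR on UMIs summed over each animal's gated cells, with 5 wild-type and 4 knock-out animals. Of 1175 genes tested, 1 was called at an adjusted p under 0.05 (0.0851%), 57 had an unadjusted p under 0.05 (4.85%), and in 24 the animals of the 2 genotypes did not overlap (2.04%). On simulated counts of this size, drawn with a common dispersion for all genes, the fit recovered 96.0% of the 101 genes changed 4-fold and 53.5% of the 99 changed 2-fold. Genes that vary more between animals would be recovered less often. In the data, Nrgn (log2 fold change -2.64) and Cd74 (3.33) exceeded 4-fold and were not called. Many changes of 2-fold or less would not have been called at this size.

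The called gene was AC102496.1, a transcript without an assigned function, which fell in knock-out animals. Its level in gated cells was 235, 72.6, 144, 217 and 250 CPM in wild-type animals 1 to 5 and 19.5, 17.9, 12.8 and 14.3 CPM in knock-out animals 1, 2, 3 and 5. All knock-out animals lay below all wild-type animals, and each of their values is 1 UMI, under the 3 counts below which a level is not told from 0. The log2 fold change was -3.35 ± 0.58 (edgeR adjusted p = 0.0378). In cells, it was found in 46 of the 111 wild-type cells, against 4 of the 61 from the knock-out. Cells outside the gate showed the same order, at 50.2 ± 19.8 and 11.7 ± 3.51 CPM, so the difference is not particular to these lymphocytes. The call ended when edgeR's robust option was off (adjusted p = 0.0609) and without any 1 of the 4 knock-out animals (adjusted p from 0.103 to 0.165). Without wild-type animal 1, 3, 4 or 5 it fell under the filter on low counts.

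Next in order, and not called, were 5 genes on each side. The lower ones were Nrgn (neurogranin, a calmodulin-binding protein), Rpl29, Nfkb1 (an NF-kappaB subunit), Ndufb2 (a subunit of respiratory complex I) and Serinc3. Rpl29, which codes for a ribosomal protein, stood at 1252, 1584, 1477, 1113 and 1398 CPM in wild-type animals 1 to 5 and at 934, 914, 768 and 570 CPM in knock-out animals 1, 2, 3 and 5. These did not overlap (log2 fold change -0.74 ± 0.19, edgeR adjusted p = 0.331), nor did the cells outside the gate, at 1026 ± 107 and 549 ± 52.4 CPM. Near-identical copies of this gene may take part of its reads, so its level is uncertain. Nrgn stood at 163 ± 46.4 and 22.5 ± 26.5 CPM (log2 fold change -2.64 ± 0.63, edgeR adjusted p = 0.275), with 0 in knock-out animals 2 and 5. It passed by edgeR with no filter on low counts (adjusted p = 0.00259) and with a cytotoxic minimum of 1 UMI (adjusted p = 0.0326). Nfkb1 stood at 268 ± 73.6 and 116 ± 40.8 CPM (adjusted p = 0.659 by edgeR).

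On the higher side were Hspa5, Manf, Sbno1, Ier2 and Rplp0. Hspa5 (BiP), the main chaperone of the endoplasmic reticulum, was at 346, 496, 319, 320 and 416 CPM in wild-type animals 1 to 5 and at 759, 592, 640 and 1226 CPM in knock-out animals 1, 2, 3 and 5. The groups did not overlap, with a log2 fold change of 1.14 ± 0.24 (edgeR adjusted p = 0.146). Hspa5 passed with DESeq2 (DESeq2 adjusted p = 0.0324) and with no filter on low counts (edgeR adjusted p = 0.0185). Manf, another protein of endoplasmic reticulum stress, stood at 141 ± 49.7 and 318 ± 170 CPM, with knock-out animal 1 inside the wild-type range (adjusted p = 0.659 by edgeR). Outside the gate Hspa5 was at 698 ± 158 and 830 ± 361 CPM, and its animals overlapped. Sbno1 stood at 87.0 ± 16.5 and 186 ± 40.8 CPM without overlap, and outside the gate at 77.3 ± 9.63 and 61.1 ± 6.11.

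**Figure D4:**
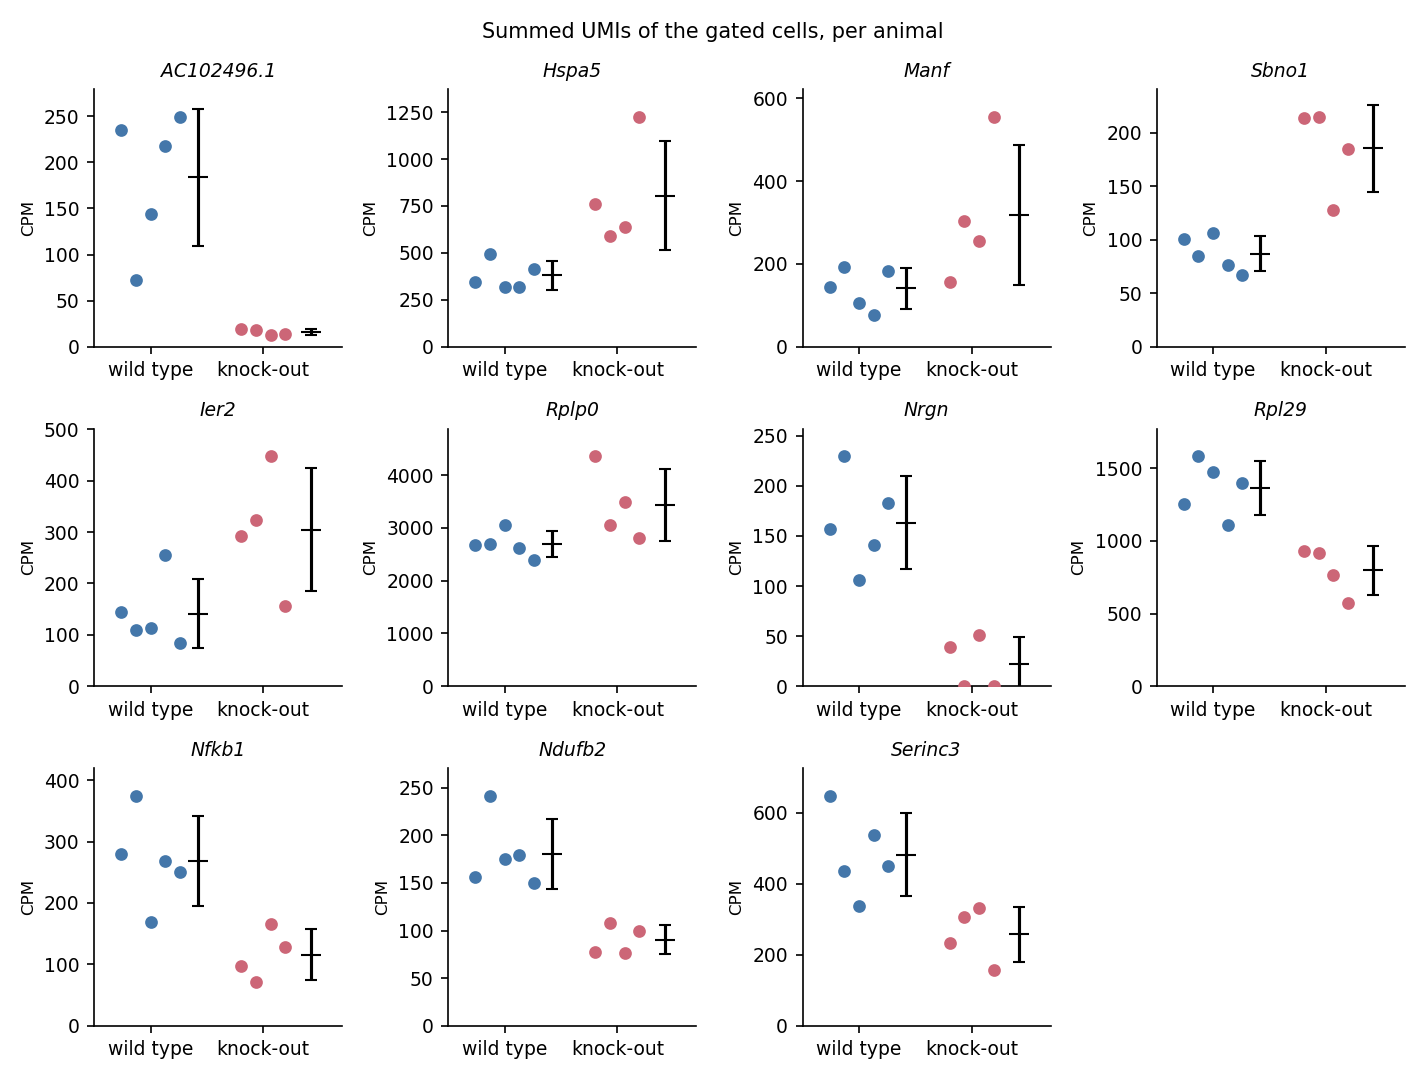
CPM (vertical axes, from 0) of the called gene AC102496.1 and the 10 genes next in order, summed over gated cells of each animal; points are animals, black marks means with SD bars. AC102496.1, Nrgn, Rpl29, Nfkb1, Ndufb2 and Serinc3 are lower in all 4 knock-out animals than in any wild-type animal, and Hspa5 and Sbno1 are higher; of these only AC102496.1 was called.

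The functional lists showed little beyond this gene. Of the cytotoxic granule list, 3 genes outside the rule had enough counts to be tested, of which 1 was higher, 2 were lower and 0 were called. Prf1 had a log2 fold change of 1.36 ± 1.16, Srgn -0.04 ± 0.20 and Ctsw -0.16 ± 0.38. The Prf1 value rested on knock-out animal 5, the animal with 44.4% NK-type cells: it had 1340 CPM there and 175, 35.9 and 38.4 CPM in knock-out animals 1, 2 and 3, against 164 ± 162 in wild-type animals. Without that animal its log2 fold change was -0.99 ± 0.97, and those of Klre1 and Klra7 were -0.23 and -0.70. All 4 tested genes listed as activating NK receptors (Klre1 0.65, Cd160 0.27, Klrd1 -0.17, Klrk1 -0.42) failed to pass. So did both listed as inhibitory (Klrc1 0.58, Klra7 0.40), with edgeR adjusted p between 0.958 and 0.989 for the 6. Klrd1 pairs with NKG2 chains, so its place in the activating list does not fix its function. Of 8 signalling adaptors, 5 were higher and 3 lower, with Lck, the kinase that starts T cell receptor signalling, at 0.69 ± 0.28 (edgeR adjusted p = 0.916). The T cell receptor list had 3 higher and 2 lower, the secreted list 2 and 2, and the traffic list 5 and 5. Transcription factors split 3 and 6, cytokine receptors 2 and 4, checkpoint genes 2 and 3 and cell cycle genes 3 and 1, with 0 called in each.

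The glucocorticoid and stress list lay to one side whichever animal was left out. All 5 tested genes were below 0 (median log2 -0.62, against -0.00 over all 1175 genes; -0.80 to -0.44 with 1 animal left out), led by Tsc22d3 (GILZ) at -1.25 ± 0.45 and Txnip at -0.74 ± 0.31, and 0 were called. The 8 tested immediate early and dissociation genes, which respond to handling of the tissue as well as to stimulation, were all above 0 (median 0.79), but this rested on knock-out animal 3. Fos was at 1433 CPM in that animal and at 156, 233 and 128 CPM in knock-out animals 1, 2 and 5, against 268 ± 89.6 in wild-type animals. Without it 4 of the 8 were above and 4 below 0 (median -0.14), Fos moved from 0.94 ± 0.74 to -0.65 ± 0.35 and Hspa1a from 1.01 ± 0.82 to -0.45 ± 0.57, while Ier2 kept 0.86 ± 0.38. The 4 tested interferon-response genes were above 0 (median 0.42) through knock-out animal 5, and all 4 were below 0 without it (median -0.51). None of these 17 genes was called by edgeR (3 had an unadjusted p under 0.05). The list of transcripts known from an earlier analysis to change in other cells of the same animals had 4 tested members, all below 0 (median -0.50): AC102496.1, Rpl29, Crip1 (-0.26) and Lgals1 (-0.13). Since it was chosen on these libraries, its direction is not independent evidence.

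**Figure D5:**
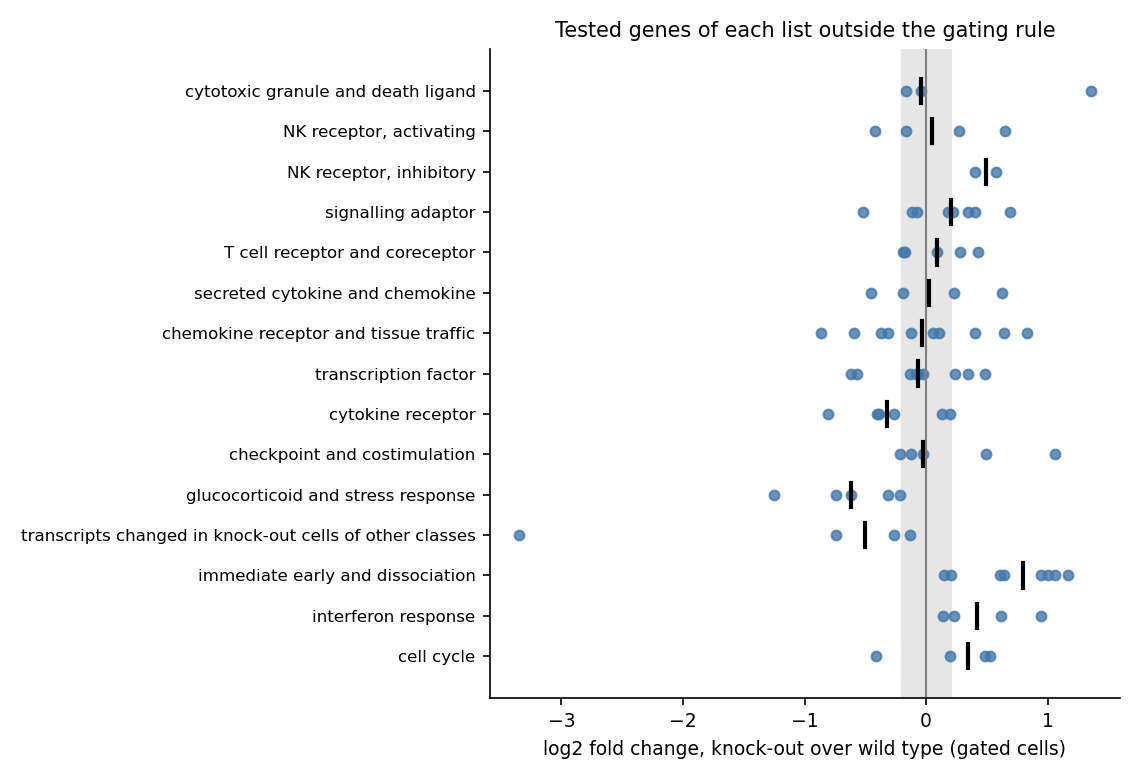
Log2 fold change, knock-out over wild type, in gated cells (horizontal axis) of each tested gene outside the gating rule (points), by list (rows), with the list median as a black bar. The grey band spans the quartiles of all 1175 tested genes, -0.20 to 0.20; glucocorticoid genes lie to the left of 0, immediate early and interferon genes to the right only with knock-out animals 3 and 5, respectively, and AC102496.1, in the row of transcripts changed in other classes, was the called gene.

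The rule's own genes are given as levels. Gzmb averaged 1703 ± 3731 CPM over the 9 animals, an SD above its mean. The summed marker list ran from 3731 to 9199 CPM in wild-type animals and from 2170 to 26086 CPM in knock-out animals, and the highest value belongs to the animal with the largest share of NK-type cells. Nkg7, found across all subsets, varied least of the 4 cytotoxic genes, at 1651 ± 678 CPM.

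Whether genotype acted differently in gated cells than in other T and NK lymphocytes was tested in one edgeR model with the animal as a term, in the 5 wild-type and 3 knock-out animals with 5 or more cells of each kind. Of 1616 genes, 0 were called by edgeR (0% of those tested), 136 had an unadjusted p under 0.05, and DESeq2 called 1. The lowest p belonged to Ifi30, a lysosomal thiol reductase of antigen-presenting cells. It stood at 78.3 and 29.7 CPM in wild-type and knock-out gated cells and at 150 and 704 CPM in the other lymphocytes (log2 difference -3.43 ± 0.69, edgeR adjusted p = 0.0788). Ifi30 passed when wild-type animal 3, wild-type animal 5 or knock-out animal 5 was left out (edgeR adjusted p = 0.0204, 0.0370 and 0.0180). It also passed with no filter on low counts (edgeR adjusted p = 0.00368). In the other lymphocytes Ifi30 was at 1186, 808 and 117 CPM in knock-out animals 1, 2 and 5, and at 56.1 to 286 CPM in wild-type animals. The summed dendritic cell list moved with it there, at 8649, 13112 and 233 CPM in the same knock-out animals and 116 to 2389 CPM in wild-type animals, and the plasmacytoid list reached 353 CPM in knock-out animal 2 against at most 24.7 CPM in any other animal. Their part in the result was not tested. Anxa1, an anti-inflammatory annexin, followed, at 201 and 58.4 CPM in gated cells and 268 and 475 in the others (log2 difference -2.43 ± 0.55, edgeR adjusted p = 0.128). With no filter on low counts Anxa1 passed (edgeR adjusted p = 0.0463). The ribosomal genes Rps27 (0.68), Rpl23 (0.65) and Rpsa (0.73) and, on the lower side, Crip1 (-0.78), Cdkn1a (-3.07) and Gnai2 (-1.16) also had adjusted p above 0.05 by edgeR; Rps27 passed without knock-out animal 2 (edgeR adjusted p = 0.0205).

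Trdc and Ccl3 stood among the lowest p in the other direction, where knock-out other lymphocytes had 0 UMIs in the 3 animals and no fold is given. Trdc had 40.7 CPM in wild-type and 227 CPM in knock-out gated cells, and 193 CPM in the wild-type other lymphocytes (edgeR adjusted p = 0.191; DESeq2 adjusted p = 0.000975, the gene that DESeq2 called). It passed by edgeR with no filter on low counts (adjusted p = 1.33e-11), with a cytotoxic minimum of 3 UMIs (0.0445), with Lyz2 at 0 (0.00127), without cells of 10000 UMIs or more (0.000345) and without wild-type animal 3 (8.1e-05). Ccl3, a chemokine of activated killer and myeloid cells, had 131 and 213 CPM in gated cells, nearly all from wild-type animal 1 and knock-out animal 5. Its edgeR adjusted p was 0.128, and 0.0337 with no filter on low counts.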

How the data were processed

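The deposited values are whole-number UMI counts per gene and cell; they were made with Cell Ranger 6.0.1 and R 4.0.5 on mm10, per the submitters' processing notes, and hold 6054 cells with 1000 to 52182 UMIs and at least 501 genes. Which step used which tool, and the cell filters behind those limits, were not stated. Of 32285 gene identifiers, 32158 matched a symbol. Animals came from the hashtag assignment deposited with the counts. No doublet caller was run; results without the 8 gated cells of 10000 UMIs or more were computed.

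The members, lists and tests were chosen with earlier results of these data known. UMI counts were summed per animal over gated cells (5 or more per animal, which left out knock-out animal 4 with 3) and tested with edgeR 4.0.16 in R 4.3.3: filterByExpr, TMM, robust quasi-likelihood fit, Benjamini-Hochberg over all genes tested, threshold 0.05. The interaction model held animal and population. CPM are relative to all UMIs of an animal's gated cells. Shares were compared by two-sided exact permutation over all splits of the animals, in own code with numpy 2.4.6. Ratios against other lymphocytes had 10 CPM added and needed 50 CPM in either population. Named genes were those of the lists, called genes, the 5 lowest p per direction among those not called, and the 15 highest and 10 lowest ratios. DESeq2 1.42.0, other gates, filters, wells and omitted animals served as alternatives. Tested on simulated counts for 1616 genes, the interaction fit recovered 70.9% of 4-fold and 22.7% of 2-fold changes. Both simulations used a common dispersion, so they do not cover genes that vary more between animals. Limits for a count of 0 use 3 counts and cover counting error only, as do all shares of cells.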

Additional observations from a re-analysis of the deposited data

Results flagged for a closer look

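In 6 of 62 groups of animals a single animal stood far from the rest by Dixon's test, which chance does in about 1 of 20 groups. Wild-type animal 2 had a share of gated cells among T and NK lymphocytes of 31.25%, against 38.6% to 40.7% in the other wild-type animals, and cells with Mki67 or Top2a UMIs made up 33.3% of its gated cells, against 8.57% to 12.5%. It also held the cell with most Il4 and Il13 UMIs. Knock-out animal 5 had 44.4% NK-type cells, against 0% to 7.14% in the other knock-out animals with 5 or more gated cells. Ccl3 was at 615 CPM in wild-type animal 1, against 0 to 16.6 CPM, and at 584 CPM in knock-out animal 5, against 0 to 35.9 CPM. Cdkn1a, a cell cycle inhibitor, was at 218 CPM in knock-out animal 3, against 0 to 35.9 CPM in the other knock-out animals.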

How the results depend on the processing

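No paired analysis was possible because the replicate numbers in the labels only number the wells, and each well pools all animals. The lower share of other T and NK lymphocytes held under all 21 alternatives, with differences from -3.97 to -3.14 percentage points when 1 animal was left out, and the share of gated cells in all cells passed under none of 21. The share of gated cells among T and NK lymphocytes passed with a cytotoxic minimum of 3 UMIs (difference 18.8 points), with Lyz2 at 0 (18.7), and without cells with innate lymphoid UMIs (25.9). Leaving out 1 animal gave 12.3 to 26.1, passing only without knock-out animal 4. The share of NK-type cells differed by -21.8 to -6.98 points when 1 animal was left out and passed only without knock-out animal 5. The Trdc share did not pass with any gamma-delta gene in its place (10.1 points), when thinned (6.67), in well 1 (19.2) or in well 2 (16.0), and ran from 14.2 to 22.4 when 1 animal was left out, passing each time. The cause of these changes was not tested.

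Counts of genes called by genotype were 2 with DESeq2 and with a cytotoxic minimum of 1, and 3 with no filter on low counts. They were 0 without the robust option, with a cytotoxic minimum of 3, with Lyz2 at 0, in either well alone, in cells with Cd3 alone, without cells of 10000 UMIs or more, and with 3 or more cells per animal. Leaving out 1 animal gave 0 or 1, and 1 only without wild-type animal 2. For the difference from other lymphocytes, 1 gene was called with DESeq2, with a cytotoxic minimum of 3 and without cells of 10000 UMIs or more, 2 with Lyz2 at 0 and in well 2, and 5 with no filter. Leaving out 1 animal gave 0 to 4, with 4 without knock-out animal 2 or 5, 2 without wild-type animal 3 and 1 without wild-type animal 5. Well 1 alone was not run there, since fewer than 3 knock-out animals had enough cells. Of 371 alternative values for single named genes, 349 kept direction and side of the threshold, 17 came to pass, 5 (all AC102496.1) no longer passed and 0 turned direction. Settings in which a gene fell under the filter on low counts are not among these values. AC102496.1, the called gene, was tested in 11 of 22 alternatives and passed in 6 of them. Alternatives on cells of 10000 UMIs or more, innate lymphoid UMIs, 3 or more cells per animal, a lineage minimum of 2 and neutrophil-gated cells were chosen after seeing the data, as were the comparisons of Trdc and of other lymphocytes with their alternatives. Few cells per animal limit all of these values.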
